A study of Mus musculus with 2 samples.

Results

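The miR-30 family is a group of 6 genes, Mir30a, Mir30b, Mir30c-1, Mir30c-2, Mir30d and Mir30e, taken by name from the 1973 miRNA gene rows of each count table. Their levels were measured by small RNA sequencing of forebrain from mouse embryos of the strain B6NCrl at embryonic day 14.5. The labels name no mutation, treatment or other tissue, so the study has 1 group of 2 libraries, numbered biological replicates 1 and 2. The labels call each library 1 forebrain and give different collection days, yet give the sex as pooled and 1 donor identifier for both. Their spread may therefore be partly technical, and an effect of the collection day cannot be told apart from variation between embryos.

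A miRNA is cut from a hairpin in a longer transcript, and a mature strand of it, from the 5′ or the 3′ arm, guides Argonaute proteins to messenger RNAs. Targets are recognised mainly through the seed, bases 2 to 8 of the mature strand, so miRNAs with a common seed are grouped as a family. The miR-30 family is known from the kidney, the heart and epithelia as well as the brain, and the hairpin of miR-30a became the scaffold for many short hairpin RNA vectors.

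The family lies at 3 loci with 2 genes each. All positions are on mm10 (GRCm38). Mir30e (chr4:120772606-120772697, minus strand) and Mir30c-1 (chr4:120769534-120769622, minus strand) lie 2983 nt apart in introns of Nfyc, which encodes a subunit of the transcription factor NF-Y. Mir30a (chr1:23272269-23272339, plus strand) overlaps no other GENCODE M21 gene, and 19361 nt away Mir30c-2 (chr1:23291701-23291784, plus strand) lies within an exon of the long non-coding gene Gm27028. Mir30d (chr15:68341208-68341289, minus strand) lies within an exon of the long non-coding gene Gm20732, and its last 9 nt also fall in an exon of Gm37296. Mir30b (chr15:68337415-68337510, minus strand) is 3697 nt from it and shares 16 nt with an exon of Gm26621.

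RefSeq (GRCm38.p6) mature sequences were matched for 4 of the 6 genes, Mir30a, Mir30c-1, Mir30c-2 and Mir30e. They are shown because the seed defines the family and because the remaining bases set which gene a read can be assigned to. Sequences run 5′ to 3′, with the seed in capitals.
miR-30a-5p: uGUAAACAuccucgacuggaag
miR-30e-5p: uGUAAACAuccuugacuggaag
miR-30c-5p: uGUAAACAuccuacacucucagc
miR-30a-3p: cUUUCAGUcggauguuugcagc
miR-30e-3p: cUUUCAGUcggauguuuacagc
miR-30c-1-3p: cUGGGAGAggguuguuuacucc
miR-30c-2-3p: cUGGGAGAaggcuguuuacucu

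The 5p strands share the seed GUAAACA, while the 3p strands fall into a pair with UUUCAGU (miR-30a and miR-30e) and a pair with UGGGAGA (both miR-30c genes). Positions are counted from 1 at the 5′ end of the mature strand, with the base of the first-named strand written first. From miR-30a-5p to miR-30e-5p 1 of 22 bases changes (C13U), and from miR-30a-3p to miR-30e-3p also 1 of 22 (G18A). miR-30a-5p and miR-30c-5p are identical over their first 12 bases and at 17 of the 22 compared. The 3p strands of the miR-30c genes differ at 3 of 22 bases (G9A, U12C and C22U from miR-30c-1-3p to miR-30c-2-3p).

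The hairpins show which reads could be counted. The mature arms are in capitals.
Mir30e: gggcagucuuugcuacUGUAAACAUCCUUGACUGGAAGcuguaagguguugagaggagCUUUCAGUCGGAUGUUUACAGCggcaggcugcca
Mir30a: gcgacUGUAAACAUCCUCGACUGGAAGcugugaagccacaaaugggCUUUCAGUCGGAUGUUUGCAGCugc
Mir30c-1: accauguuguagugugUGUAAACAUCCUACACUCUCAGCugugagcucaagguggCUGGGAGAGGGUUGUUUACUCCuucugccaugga
Mir30c-2: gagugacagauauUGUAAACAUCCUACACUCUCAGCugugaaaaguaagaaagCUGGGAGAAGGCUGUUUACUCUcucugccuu

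Both miR-30c hairpins yield the same 23-base miR-30c-5p, and a run of 28 bases that starts with it is identical in both, as the map of the hairpins shows. A read that lies within this run matches both genes equally. Reads that matched several places were put by the authors in a multi-mapping total of 43.3% of the reads in replicate 1 and 42.2% in replicate 2, and belong to no gene. The counts of Mir30c-1 and Mir30c-2 therefore leave out miR-30c-5p as annotated and are no measure of its level. Among the 1005 hairpins in the RefSeq table, Mir30a and Mir30e share no run of 20 bases with any outside their own position. Mir30b and Mir30d have no entry there, so runs shared with them were not checked. The longest run common to Mir30a and Mir30e is 18 bases. Their mature strands are told apart by 1 base in either arm, and how the aligner treated mismatches is not given in the sources used here.

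**Figure D1:**
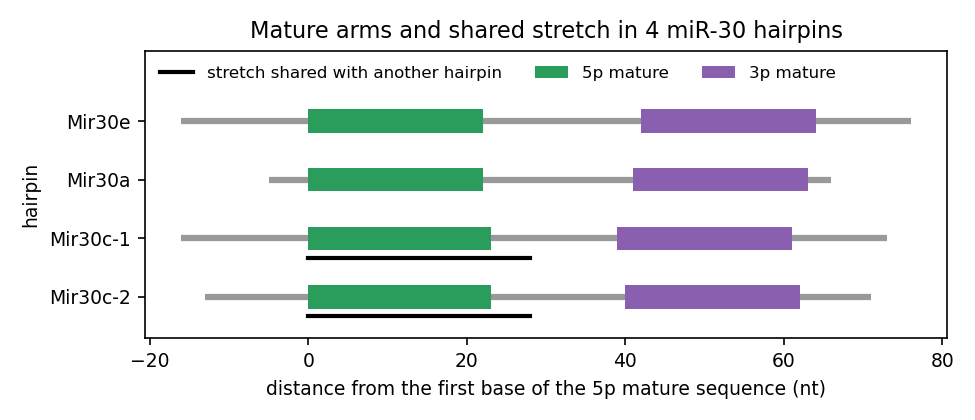
Horizontal axis: distance in nt from the first base of the 5p mature sequence. Grey lines are the hairpins of Mir30e, Mir30a, Mir30c-1 and Mir30c-2, green and purple boxes the 5p and 3p mature sequences, and black bars the 28 bases common to both miR-30c hairpins. The bars cover the whole 5p arm of both miR-30c genes and neither of their 3p arms.

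Every one of the 6 miR-30 genes was detected, which here means at least 10 counts in each library. Together they held 301595 of 7080317 miRNA counts in replicate 1 (4.26%, 95% exact Clopper-Pearson interval 4.24 to 4.27) and 285730 of 7946585 in replicate 2 (3.60%, interval 3.58 to 3.61). The share was thus higher in replicate 1, and the intervals were separate. Intervals cover counting error only and take reads as independent. PCR copies of a molecule are not independent, so the intervals may be too narrow. The counts leave out miR-30c-5p as annotated, so the family share is one of uniquely assigned counts. Levels are given as CPM, a gene's count divided by the sum over all miRNA genes and multiplied by 1000000. On this scale a floor of 3 counts is 0.424 CPM in the first library and 0.378 CPM in the second.

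Mir30e was the highest member, with 179161 counts (25304 CPM) in replicate 1 and 166695 counts (20977 CPM) in replicate 2. It ranked 8th of all genes in the first library and 11th in the second, and made up 58.9% ± 0.753 of the miR-30 counts (SD, n = 2). Mir30a followed with 11506 and 9961 CPM in replicates 1 and 2, from 81465 and 79156 counts. It ranked 17th in both libraries and gave 27.4% ± 0.489 of the family. Both genes were higher in replicate 1, and the lowest value of Mir30e was above the highest of Mir30a. Mir30d stood at 5400 and 4738 CPM (38234 and 37650 counts), with 12.9% ± 0.353 of the family. These genes, 1 from each locus, together gave 99.1% of the miR-30 counts in replicate 1 and 99.2% in replicate 2. The miR-30 counts leave out miR-30c-5p as annotated, so these are shares of uniquely assigned counts and not of all miR-30 strands.

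The partner gene at each locus was far lower. Mir30b had 274 and 206 CPM in replicates 1 and 2, from 1937 and 1637 counts. Mir30c-1 had 75.1 and 46.4 CPM (532 and 369 counts), and Mir30c-2 had 37.6 and 28.1 CPM (266 and 223 counts). For both miR-30c genes these are the reads that match 1 locus alone. The 3 low genes summed to 0.907% of the family in replicate 1 and 0.780% in replicate 2.

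**Figure D2:**
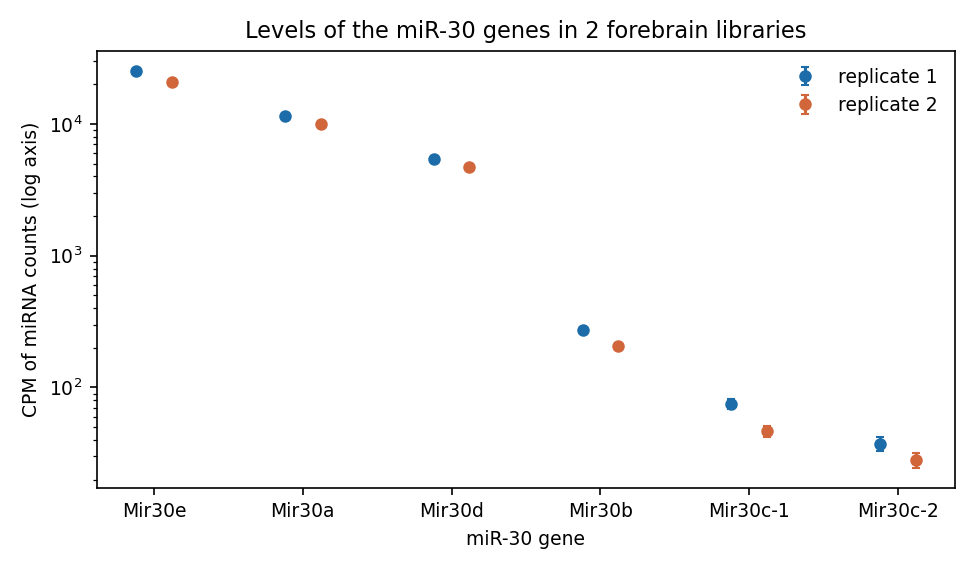
CPM of each miR-30 gene (vertical log axis) in replicate 1 (blue) and replicate 2 (orange), with 95% exact counting intervals, most of them smaller than the point. Mir30e, Mir30a and Mir30d lie between 4738 and 25304 CPM and the other genes between 28.1 and 274 CPM, with replicate 1 higher for each gene.

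The order Mir30e, Mir30a, Mir30d, Mir30b, Mir30c-1, Mir30c-2 was the same in both libraries. In mean CPM, Mir30e was 2.16 times Mir30a, Mir30a was 2.12 times Mir30d and Mir30d was 21.1 times Mir30b. Mir30b was 3.94 times Mir30c-1, which was 1.85 times Mir30c-2. For each of these 5 neighbouring pairs the lower library of the higher gene lay above the higher library of the lower gene. The closest pair was Mir30c-1 and Mir30c-2, at 46.4 CPM in replicate 2 against 37.6 CPM in replicate 1. Both counts leave out miR-30c-5p as annotated, so the places of these genes are those of uniquely assigned reads.

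Against all other miRNA genes the places were less firm. Mir30e (23141 ± 3060 CPM, SD, n = 2, rank 10) stood between Mir487b of the Dlk1-Dio3 region (23191 ± 3648 CPM) and the endothelial Mir126a (22234 ± 185 CPM), and its 2 values overlapped with those of both. Mir30a (10733 ± 1092 CPM, rank 17) overlapped with Mir20a of the miR-17 cluster above it (11310 ± 1834 CPM). It was separate in both libraries from Mir322 below it (9370 ± 77.6 CPM). Mir30d (5069 ± 468 CPM, rank 35) lay between Mir23b (5148 ± 356 CPM) and Mirlet7b (4598 ± 538 CPM) and overlapped with both.

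The 3 low genes overlapped with the genes next to them as well. Mir30b (240 ± 47.8 CPM, rank 140) lay between Mir1251 (241 ± 5.69 CPM) and Mir669l of the Sfmbt2 cluster (238 ± 38.9 CPM). Mir30c-1 (60.8 ± 20.3 CPM, rank 218) lay between Mir194-2 (62.3 ± 12.5 CPM) and Mir31 (58.5 ± 4.96 CPM). Mir30c-2 (32.8 ± 6.72 CPM, rank 250) lay between Mir1955 (33.0 ± 2.88 CPM) and Mir181b-1 (31.8 ± 2.50 CPM). For both miR-30c genes the rank is that of counts without miR-30c-5p as annotated.

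One gene outside the family carries the seed of its 5p strands. Among 1674 distinct mature sequences in the RefSeq table, 4 hold GUAAACA at bases 2 to 8. These are the 3 strands shown above and miR-384-5p, a strand studied in synaptic plasticity. It is shown for comparison with the family.
miR-384-5p: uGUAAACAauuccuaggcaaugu
miR-384-5p and miR-30a-5p are identical over the first 8 bases and at 12 of 22 in all. Mir384 (mature strand at chrX:105344332-105344354, minus strand) had 1752 counts (247 CPM) in replicate 1 and 1417 counts (178 CPM) in replicate 2. Its mean of 213 ± 48.9 CPM (SD, n = 2, rank 149) overlapped with that of Mir30b and was below those of Mir30e, Mir30a and Mir30d in both libraries.

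The seeds of the 3p strands were looked up in the same table, again with 4 of the 6 genes entered. UUUCAGU was held by no mature strand in the table other than miR-30a-3p and miR-30e-3p. UGGGAGA was held by 1 further strand, from Mir6958, which had 23 and 25 counts. The deposited counts belong to whole hairpins, so how the counts of Mir30a, Mir30d, Mir30e or Mir30b divide between the arms cannot be read from them.

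No read on the strand opposite to any of the 6 genes was counted in either library. RefSeq and GENCODE place a further gene, Mir30f, on the plus strand at the position of Mir30e, and it has no row of its own among the genes analysed here. A count of 0 opposite Mir30e still allows that floor, 0.424 and 0.378 CPM, for reads that match there alone.

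Genes that lie together may be cut from 1 primary transcript, and the ratio of their counts does not depend on how the libraries are scaled. At the Nfyc locus Mir30e had 337 times the counts of Mir30c-1 in replicate 1 (95% interval 309 to 367, from the exact Clopper-Pearson interval of the share) and 452 times in replicate 2 (interval 408 to 502). On chromosome 1 Mir30a had 306 times the counts of Mir30c-2 (interval 272 to 347) and 355 times (interval 311 to 407). The miR-30c genes are the low partners at both loci, and their counts lack the reads of miR-30c-5p. These ratios therefore compare all uniquely placed reads of one gene with part of the reads of the other.

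On chromosome 15 the ratio of counts was lower. How many shared reads the counts of Mir30d and Mir30b lack was not checked, since no sequence of either was matched. Mir30d had 19.7 times the counts of Mir30b in replicate 1 (95% interval 18.9 to 20.7) and 23.0 times in replicate 2 (interval 21.9 to 24.2). At the 3 loci the ratio was higher in replicate 2, by 1.34 times for Mir30e to Mir30c-1, 1.16 times for Mir30a to Mir30c-2 and 1.17 times for Mir30d to Mir30b. The counting intervals of the libraries were separate at the Nfyc locus and on chromosome 15 and overlapped on chromosome 1. With 2 libraries no test over samples was possible. Of the uniquely assigned miR-30 counts, the locus of Mir30e and Mir30c-1 gave 59.0% ± 0.786 (SD, n = 2). That of Mir30a and Mir30c-2 gave 27.4% ± 0.482 and that of Mir30d and Mir30b 13.5% ± 0.304.

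**Figure D3:**
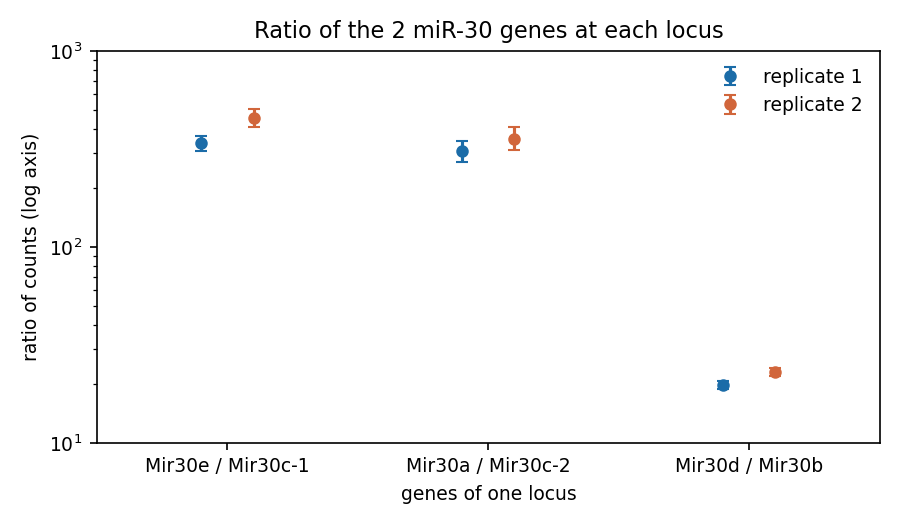
Ratio of the counts of the higher to the lower gene (vertical log axis) at each of the 3 miR-30 loci, in replicate 1 (blue) and replicate 2 (orange), with 95% counting intervals. The ratios at the loci with a miR-30c gene lie between 306 and 452 and those of Mir30d to Mir30b at 19.7 and 23.0, with replicate 2 above replicate 1 at each locus.

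Between the libraries every miR-30 gene had more counts in replicate 1, although that library held fewer miRNA counts in all. Mir30e was 1.21-fold higher there, Mir30a 1.16-fold and Mir30d 1.14-fold. The low genes differed more, with Mir30b 1.33-fold higher, Mir30c-2 1.34-fold and Mir30c-1 1.62-fold. The 6 genes passed Fisher's exact test (two-sided, Benjamini-Hochberg over 737 genes). It sets the counts of 1 gene against all its library's other miRNA counts and takes reads as independent. It so compares this pair of libraries with no measure of the spread among embryos. Of all genes tested, 17.0% passed the same test with the higher level in replicate 1, 9.36% with the higher level in replicate 2, and 26.3% in either direction. The adjusted p was 5.32e-12 for Mir30c-1, 0.00556 for Mir30c-2, 2.25e-16 for Mir30b, 1.11e-71 for Mir30d and 7.56e-184 for Mir30a, and for Mir30e it was too small to be held in double precision. At this depth the test passes small differences, and no miR-30 gene reached 2-fold.

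Among the 399 detected genes, 30.3% passed as higher in replicate 1. Differences of at least 2-fold that passed were found for 0.814% of all genes tested toward replicate 1, 0.678% toward replicate 2 and 1.49% in either direction. With CPM, 62.2% of the detected genes were higher in replicate 1, and their median log2 ratio (replicate 2 over 1) was -0.09. The median of the 6 miR-30 genes was -0.34, from -0.69 for Mir30c-1 to -0.19 for Mir30d. Log2 ratios had an SD of 0.377 over all detected genes. Over the 85 genes with a mean of 1000 CPM or more the SD was 0.224 and the median -0.11. A wider spread at low levels is thus not particular to the miR-30 genes. Of the detected genes, 39.1% had a ratio as low as that of Mir30d or lower, 28.6% as low as Mir30e, 16.8% as low as Mir30b and 3.76% as low as Mir30c-1.

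**Figure D4:**
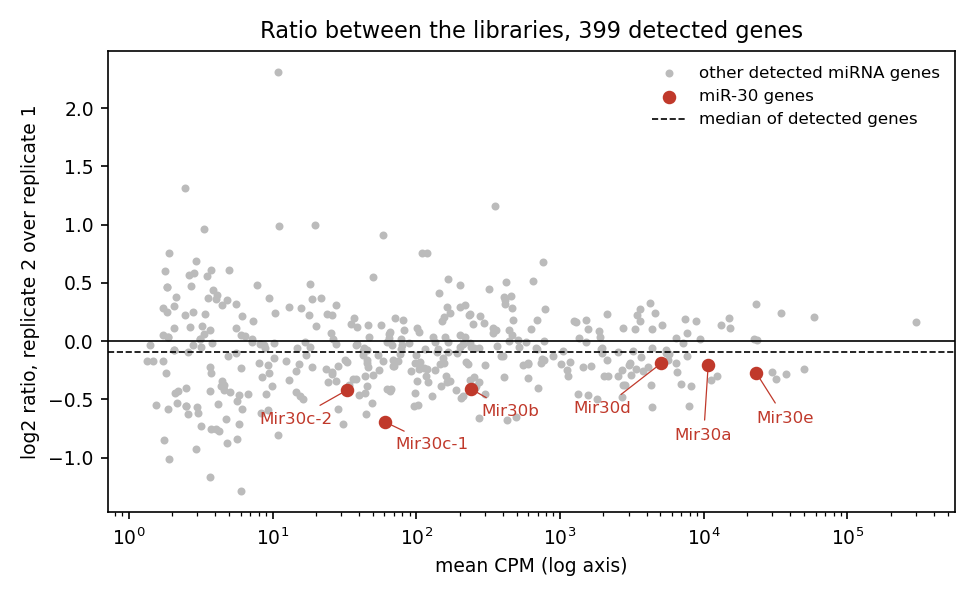
Each point is 1 of 399 detected miRNA genes, with mean CPM on the horizontal log axis and the log2 ratio of replicate 2 over replicate 1 on the vertical axis. The miR-30 genes (red) lie below 0, from -0.19 (Mir30d) to -0.69 (Mir30c-1), and below the dashed median of -0.09, within the cloud of the other genes.

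Between separate samples at this depth a spread above counting noise is usual, so the values here only describe its size. The SD between the libraries was 13.2% of the mean for Mir30e, 10.2% for Mir30a and 9.24% for Mir30d. Counting of independent reads alone gives 0.240%, 0.353% and 0.513%. The SD was 19.9% for Mir30b, 33.4% for Mir30c-1 and 20.5% for Mir30c-2, against 2.37%, 4.71% and 6.40% from counting. Mir384, which shares the 5p seed, had a log2 ratio of -0.47 (Fisher's exact test, adjusted p = 3.33e-19).

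A scaling of whole libraries shifts the ratios of all genes by 1 amount. Median-of-ratios size factors moved the log2 ratios of all genes up by 0.11, TMM library sizes by 0.08 and totals without Mir99a, the most abundant gene, by 0.07. The calls toward replicate 1 were 64.4% of all calls with CPM, 53.0% with TMM and 47.1% with median-of-ratios factors. Under each of these scalings the 6 genes stayed higher in replicate 1, and their median log2 ratio was -0.26 with TMM and -0.23 with median-of-ratios factors. Mir30c-2 lost its call with median-of-ratios factors (Fisher's exact test, adjusted p = 0.0711). Measured from the median of the detected genes, the log2 ratio was -0.60 for Mir30c-1, -0.33 for Mir30c-2, -0.32 for Mir30b, -0.18 for Mir30e, -0.12 for Mir30a and -0.10 for Mir30d under each scaling, since all genes shift together.

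**Figure D5:**
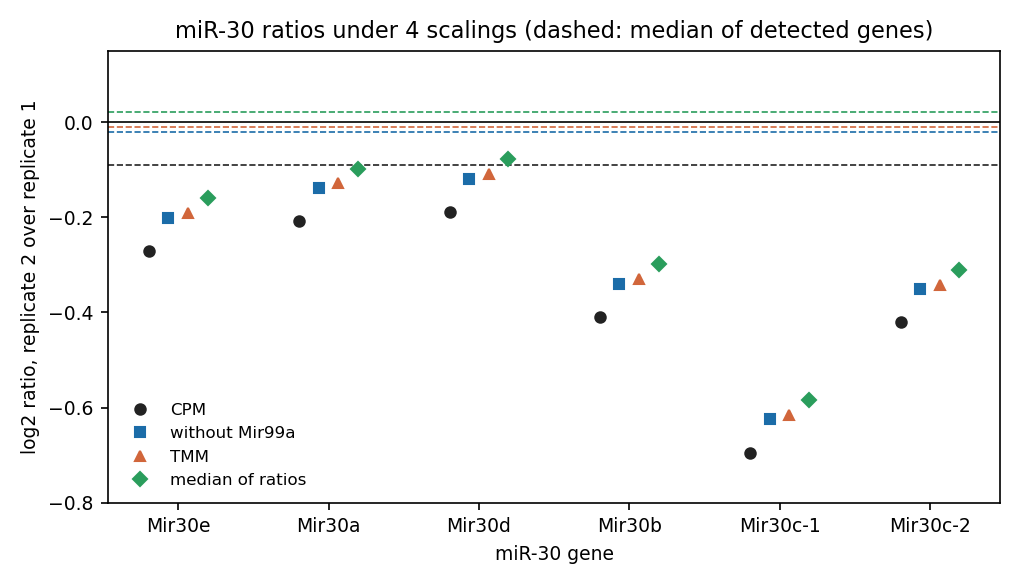
Log2 ratio of replicate 2 over replicate 1 (vertical axis) for the 6 miR-30 genes under 4 scalings (CPM, totals without Mir99a, TMM, median of ratios), with dashed lines at the median of the detected genes under each scaling. The points of a gene shift together with the dashed lines, and each lies below 0 and below its own dashed line.

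Genes with the most similar ratio to that of the summed miR-30 counts (log2 ratio -0.24) among 82 other genes at 1000 CPM or more were Mir324 (3374 ± 397 CPM), Mirlet7i (49620 ± 5832 CPM) and Mir423 (2707 ± 330 CPM), with log2 ratios of -0.24, -0.24 and -0.25. This likeness rests on 2 libraries and describes only their ratio.

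Set beside families of similar size or level, the miR-30 share of 3.93% ± 0.470 (SD, n = 2) lay near the 3.38% ± 0.0428 of the 6 miR-181 genes, whose SD was smaller. It was below the 13.2% ± 0.177 of the 10 let-7 and miR-98 genes analysed and above the 1.32% ± 0.0910 of the 3 miR-26 genes. The leading gene held 58.9% ± 0.753 of the counts in miR-30 (Mir30e), 44.9% ± 1.84 in miR-181 (Mir181c), 44.3% ± 3.91 in let-7 (Mirlet7g) and 99.7% ± 0.00639 in miR-26 (Mir26b). The summed ratio between the libraries was toward replicate 1 for miR-30 (log2 ratio -0.24) and slightly toward replicate 2 for miR-181 (0.03), let-7 (0.03) and miR-26 (0.14). For miR-181 the median over its genes, -0.12, had the opposite sign to its sum. With 2 libraries these differences between families were not tested. Several hairpins of the other families also share sequence, so the shares compare uniquely assigned counts only.

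The libraries held 18598385 and 20638071 reads, of which 38.1% and 38.5% were miRNA counts. The tissue label was checked with markers. Of 10 forebrain and neuronal genes listed, 9 had a row of counts. Of these 9, 8 were detected, led by Mir137 (7614 ± 481 CPM, SD, n = 2), and none was at 0. Mir153, Mir128-1, Mir128-2 and Mir9-3 had means of 1649, 756, 644 and 595 CPM. Mir9-2, Mir124a-1, Mir124a-2 and Mir124a-3 had only 5.00, 2.21, 1.78 and 0.464 CPM, below the hepatic Mir122 (10.3 CPM). Reads common to several Mir9 or Mir124a genes would be in the multi-mapping total. Whether this lowered their counts was not tested. The listed genes thus went both ways, and the check of the tissue label rests on higher genes picked after their levels were seen. The summed share of the 9 genes was 1.15% in replicate 1 and 1.11% in replicate 2. The endothelial Mir126a held 2.21% and 2.24%. The 4 choroid plexus and multiciliated cell genes held 0.806% and 0.665%, so they too were higher in replicate 1, and their part in the miR-30 difference was not tested. The 5 epithelial genes held 0.0367% and 0.0751%, the 2 smooth muscle and stromal genes 0.348% and 0.390%, the 2 erythroid genes 0.0400% and 0.0537% and the 3 other blood genes 0.0186% and 0.0191%. The hepatic Mir122 stood at 10.3 ± 0.0829 CPM. Of 4 striated muscle genes only Mir206 was detected (16.4 ± 3.97 CPM), while Mir1a-1, Mir133a-1 and Mir133a-2 were at 0. These last have near-identical copies, so their common reads would be in the multi-mapping total. In such bulk tissue, fewer cells of a type and less RNA per cell cannot be told apart.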

How the data were processed

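Both small RNA libraries of E14.5 mouse forebrain were used. Per the file headers of the README deposited with each sample, the authors derived whole-number read counts per miRNA gene from 1 alignment file per library, using mm10 and annotation M4 of GENCODE. Which aligner and counter were run is not given in the sources used here. The tables have 3 columns of counts (either, own and opposite strand) and 4 totals that name no gene. Unmapped, multi-mapping and unannotated reads were 16.8%, 42.7% and 2.21% of the reads and stayed out of library sizes.

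Own-strand counts were scaled to CPM. Names came from GENCODE M21 (1894 of 1973 IDs matched) and sequences from RefSeq. A gene was detected at 10 counts in both libraries. Fisher's exact test (scipy 1.17.1) used the 737 genes with a count and a threshold of 0.05 on the adjusted p. It was also run on simulated data of 492 genes with counting noise only. There it called 87.0% of 100 genes changed 4-fold, 76.0% of 100 changed 2-fold and 2.40% of 292 left unchanged. Such data hold only the noise that the test assumes, so these rates do not carry over to libraries with a wider spread. Scalings came from edgeR 4.0.16 and DESeq2 1.42.0. Named genes were the members, their neighbours in level, genes with the 5p seed, the 3 genes of most similar ratio and 3 like families. Mir6958 and Mir30f were named after the data were seen. Members and lists were chosen with earlier results of these data known.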

Additional observations from a re-analysis of the deposited data

How the results depend on the processing

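The denominator set the family share. It was 5.61% without Mir99a in the total and 1.50% of all reads, and the level of each miR-30 gene moved with it. Counts on either strand, TMM and median-of-ratios sizes moved no level by as much as its SD. Without either replicate the share ranged from 3.60% to 4.26%. The locus ratios ranged from 337 to 452 for Mir30e to Mir30c-1, from 306 to 355 for Mir30a to Mir30c-2 and from 19.7 to 23.0 for Mir30d to Mir30b.

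Of the 6 miR-30 genes called higher in replicate 1, 0 remained with a 2-fold minimum and 5 with median-of-ratios factors. All 6 were called with TMM, without Mir99a in the total, on either strand, with the low-count filter and with an exact binomial test. Toward replicate 1, the calls over all genes tested were 96 of 737 with TMM and 88 of 737 with median-of-ratios factors. They were 97 of 736 without Mir99a and 128 of 752 on either strand. With the filter they were 139 of 445, and with the binomial test 125 of 737. Over all genes, 11 passed at 2-fold or more. With the filter this count was 17, since fewer genes were tested, and with no minimum fold it was 194. No paired analysis was possible because the study has 1 group. With 2 libraries an SD is coarse, and 1 library each gives no estimate of the spread behind a ratio. The levels of miR-30c-5p and of single arms cannot be read from these counts.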
